A study of Mus musculus with 24 samples.

Results

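Ku70-/- mouse embryonic fibroblasts that had been given potassium bromate (KBrO3) in the presence of bisphenol A (BPA) were compared at 24 hr and at 4 hr after the start of the KBrO3 exposure. The comparison rests on 6 of 24 arrays, the 3 whose titles name KBrO3 + BPA at 24 hr and the 3 that name it at 4 hr. KBrO3 is an oxidant whose best known DNA lesion is 8-oxoguanine, and BPA is the monomer of polycarbonate plastics. In both groups the KBrO3 pulse was 20 mM for 1 hr and ended with a wash. BPA at 150 μM was given from 1 hr before the pulse until collection, 3 or 23 hr after the wash. The other arrays hold untreated cells, cells given KBrO3 without BPA (4 and 24 hr) and, in a second set with its own untreated cells, cells given 150 μM BPA alone (4 and 24 hr by the labels, 1 hr longer at each time by the Methods). Each group has 3 biological replicates. Every group, untreated cells included, is of 1 immortalized line that lacks Ku70, a subunit of the Ku dimer that binds broken DNA ends, so no comparison was made with cells that have Ku70. No untreated array is labeled 24 hr, and those of the first set are labeled 4 hr.

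The arrays were Agilent 1-color whole mouse genome arrays, and all levels are log2 signals relative to the 75th percentile of the same array, so that 0 is a fairly bright probe and 1 unit is a 2-fold step. Positions of probes are those of the array annotation (mm7). Changes are differences of these levels, given with the SE of the fit and a Benjamini-Hochberg adjusted p over all probes tested (limma). Levels of different genes are not comparable, since probes differ in how well they bind. The share of spots well above background was 64.5 to 67.2% on the 3 arrays at 4 hr and 57.7 to 60.2% on the 3 at 24 hr. No slide held both co-exposure groups, and none held an untreated array together with a co-exposure array. KBrO3 alone at 24 hr had 1 array on the slide of the 4 hr group (68.1% of spots well above background) and 2 on a slide with 2 of the 24 hr arrays (59.6 and 62.1%), so that this share moved with the slide. A fit with slide as a fixed block, which these KBrO3 arrays make possible, is therefore given beside the results. Of 13 fibroblast markers, all were well above background on every 4 hr array, and 12 on every 24 hr array. Their summed linear signal, in multiples of the 75th percentile, was 1070 to 1110 at 4 hr and 468 to 548 at 24 hr, against 1530 to 1630 in untreated cells. Thy1, a surface protein of fibroblasts, was not well above background on any 24 hr array. By the Methods each labeling began with the same amount of RNA, and levels are relative to the array, so cell number and RNA per cell were not measured. Xrcc6, the gene of Ku70, gave signal on all arrays, and whether its probe lies in the deleted stretch is not given in the sources used here, so it does not check the genotype.

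As background, an oxidant pulse in fibroblasts sets off a fast wave of transcription. Immediate early factors and their feedback inhibitors come first, with heat shock and integrated stress response genes, and NRF2, which is released from KEAP1 when cysteines are oxidized, drives glutathione and thioredoxin genes. DNA damage stabilizes p53, which induces cell cycle inhibitors and pro-apoptotic genes, while mitotic genes are repressed. SREBP2 drives cholesterol synthesis when sterols in the endoplasmic reticulum are low.

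Of 13748 protein-coding genes with a probe well above background on all arrays of either group, 5484 were altered from 4 to 24 hr, which is 39.9%. The call required a change beyond 1.5-fold and a Bonferroni p under 0.01 in 1 or more of the gene's probes (limma, two-sided, over 26235 probes). With a Benjamini-Hochberg p below 0.05 instead, 8934 genes were altered (65%). Of the altered genes 2789 rose (20.3% of those tested), 2675 fell (19.5%) and 20 had probes in both directions. These shares are the background against which each gene list below should be read. No such share was counted for position against the untreated arrays. Counts of genes above or below those arrays therefore have no background beside them and are not read as particular to a list. The 3 arrays of 1 group lay wholly above or below the 3 of the other for 11777 of 13720 representative probes (85.8%), the brightest probe of each gene. Arrays within a group correlated at 0.993 to 0.997 and arrays across the groups at 0.929 to 0.933. With slide as a block, 2930 genes were altered, 1434 of them upward and 1493 downward. Scaled to each array's median instead of its 75th percentile, the median change of all probes moved from -0.23 to 0.23 and the split became 3904 risen and 1215 fallen, 76.1% of altered genes upward against 50.9%. Each fall below is therefore relative to the upper quartile of the array.

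**Figure D1:**
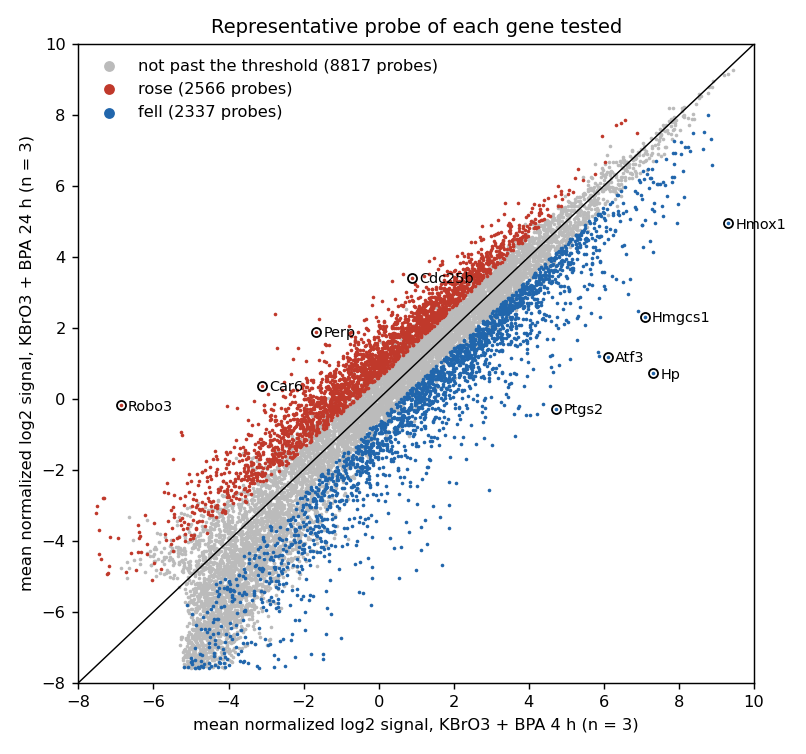
Mean normalized log2 signal of each gene's representative probe (13720 probes) on the 3 KBrO3 + BPA arrays at 4 hr (x axis) and the 3 at 24 hr (y axis), with altered genes colored. Robo3 lay farthest above the diagonal among the labeled genes, at -6.87 and -0.18, and Hp far below it, at 7.31 and 0.72.

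Among 1481 genes with a level under -4 at 4 hr, 157 rose and 72 fell, while the median change was -0.99. Only 37.9% of them were above background on all 24 hr arrays, so that most passed the filter on dim probes through the 4 hr arrays, which favors a fall, and nothing is read from that median. Of 1316 genes with a level of 4 or higher at 4 hr 50 rose and 446 fell, with a median of -0.36, in a class set by 1 of the levels compared. The 2 KBrO3 24 hr arrays on the later slide differed from the 1 on the 4 hr slide by a median of -0.37 for the dimmest class and 0.06 for the brightest. For the gene lists described here other than markers of other cell types, the median of that slide difference lay between -0.07 and 0.07.

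The 12 largest falls among genes above background on all 6 arrays included the acute phase genes Hp and Lbp and the matrix genes Dpt and Aspn. Hp, the haptoglobin gene, whose product binds free hemoglobin, with its probe at chr8:108175404-108175463, was 7.30, 7.36 and 7.26 on the 4 hr arrays and 0.80, 0.85 and 0.52 on the 24 hr arrays, against 7.81, 7.74 and 7.82 on the untreated arrays. Hp thus fell by 6.58 ± 0.074 (adjusted p = 1.07e-14), with no overlap between the times. Aldh1a3, which makes retinoic acid, was 0.99, 1.00 and 1.01 at 4 hr and -5.02, -4.20 and -5.24 at 24 hr and fell by 5.82 ± 0.20. Dpt, dermatopontin of the extracellular matrix, was 0.48, 0.59 and 0.54 at 4 hr and -4.89, -5.02 and -5.26 at 24 hr and fell by 5.59 ± 0.075. Lbp, which presents bacterial lipopolysaccharide, was 2.91, 3.07 and 2.86 at 4 hr and -2.48, -2.54 and -2.68 at 24 hr and fell by 5.51 ± 0.073. Each of these stood below all untreated arrays at 24 hr. Cyp2f2, a cytochrome P450, fell by 5.49, Cxcl14, a chemokine, by 5.37 and Aspn, the matrix protein asporin, by 5.37. Ptgs2, the inducible cyclooxygenase, with its probe at chr1:150033228-150033287, was 4.79, 4.59 and 4.80 on the 4 hr arrays and -0.31, -0.23 and -0.28 on the 24 hr arrays, against -1.33, -1.24 and -1.42 on the untreated arrays. Ptgs2 thus fell by 5.002 ± 0.063 (adjusted p = 1.96e-14), with no overlap between the times. Unlike Hp, it remained above all untreated arrays at 24 hr. Tent5c fell by 4.96, Atf3, a stress-induced repressor, by 4.92, Ggt5 by 4.87 and Cemip, a hyaluronan-degrading protein, by 4.85. The largest adjusted p among these 12 was 6.41e-11, and in all 12 the 3 arrays at 24 hr were below the 3 at 4 hr.

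The largest rises were of genes that were dim at 4 hr. 1700007K13Rik, with its probe at chr2:28469361-28469420, was -2.80, -2.80 and -2.65 on the 4 hr arrays and 2.38, 2.40 and 2.40 on the 24 hr arrays, against -1.996, -1.92 and -2.16 on the untreated arrays. 1700007K13Rik thus rose by 5.14 ± 0.062 (adjusted p = 1.54e-14), with no overlap between the times. It passed from below all untreated arrays to above them. Celf5, an RNA-binding splicing regulator, was -5.38, -4.95 and -5.37 at 4 hr and -1.01, -1.10 and -0.98 at 24 hr and rose by 4.20 ± 0.26. Kank3, an actin-linked protein, was -2.64, -2.73 and -2.74 at 4 hr and 1.54, 1.72 and 1.04 at 24 hr and rose by 4.14 ± 0.14. Tnfrsf18 (GITR, a TNF receptor) rose by 3.84, Hoxa7 by 3.84, Dglucy by 3.58 and Rab7b by 3.52. Perp, a p53 target of cell membranes, with its probe at chr10:18579623-18579682, was -1.67, -1.70 and -1.64 on the 4 hr arrays and 1.95, 1.90 and 1.80 on the 24 hr arrays, against -0.48, -0.48 and -0.80 on the untreated arrays. Perp thus rose by 3.55 ± 0.088 (adjusted p = 3.96e-12), with no overlap between the times. Car6, a secreted carbonic anhydrase, rose by 3.49, Bglap (osteocalcin) by 3.38, Klf15 by 3.25 and the nuclease gene Ankle1 by 3.09. In all 12 the groups did not overlap. With slide as a fixed block, Celf5 and Rab7b no longer passed the threshold.

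Genes that were not above background in 1 of the groups have only a lower limit for their change. Robo3, an axon guidance receptor, with its probe at chr9:37344793-37344852, was -7.06, -6.93 and -6.63 on the 4 hr arrays and -0.16, -0.061 and -0.31 on the 24 hr arrays, against -5.40, -5.47 and -5.11 on the untreated arrays. The groups did not overlap. It was not well above background on any 4 hr array, which makes the rise at least 38.5-fold. Inka2 rose at least 12.9-fold, Soat2, which esterifies cholesterol, 7.12-fold, Rab42 6.7-fold, Mmp15, a membrane-bound metalloproteinase, 6.26-fold and Shisal2b 6.23-fold. In the other direction Adra2a, an adrenergic receptor, fell at least 33.1-fold, Megf6 19.2-fold, Nppc, the precursor of C-type natriuretic peptide, 15.9-fold, Aoc3 14.8-fold and Olfr772, an olfactory receptor, 14.5-fold. The measured means and the fit are less certain here than for brighter probes. Nppc, Olfr772, Inka2 and Soat2 no longer passed with slide as a block, and Olfr772 no longer passed without any 1 of the 6 arrays.

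Immediate early factors fell almost as a whole, with 22 of 24 tested genes fallen and none risen and a median change of -1.61 against -0.14 over all genes. Atf3, named above, stood at 6.10, 6.15 and 6.07 on the 4 hr arrays and at 1.26, 1.19 and 1.09 on the 24 hr arrays, against -0.45, -0.44 and -0.34 on untreated arrays. Its level at 24 hr was thus still above untreated cells. Egr4, a zinc finger factor, fell by 4.77 ± 0.17 and Egr2 by 3.42 ± 0.035. Egr3 was not well above background at 24 hr and fell at least 7.71-fold. Of the AP-1 subunits, Fos fell by 2.36 and Jun by 2.43, to levels of -2.41 and 1.79. Jun at 24 hr overlapped the untreated arrays, whereas Fos lay below them. Myc, which drives growth genes, fell by 2.36 and Egr1 by 1.41. Jund, a subunit present in resting cells, was 0.22 higher, which did not pass. Egr1 did not pass under median scaling. On the 24 hr arrays 12 of the 24 genes were above all untreated arrays and 9 below them, against 22 and 2 at 4 hr.

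The inhibitors that MAP kinase signaling induces fell with them, 13 of 15 genes with a median of -1.63. Dusp4, a phosphatase of ERK, fell by 2.64 ± 0.086, Dusp6, another ERK phosphatase, by 2.15 ± 0.095 and Dusp1 by 2.19 ± 0.038. Errfi1, an inhibitor of the EGF receptor, fell by 2.503. Among 8 EGF family ligands 5 fell and none rose. Hbegf, heparin-binding EGF, with its probe at chr18:36881322-36881381, was 5.62, 5.67 and 5.64 on the 4 hr arrays and 2.45, 2.57 and 2.23 on the 24 hr arrays, against 0.67, 0.69 and 0.64 on the untreated arrays. Hbegf thus fell by 3.23 ± 0.068 (adjusted p = 1.16e-12), with no overlap between the times. It stayed above untreated cells. Ereg (epiregulin) fell by 4.20, Areg (amphiregulin) by 2.55 and Epgn by 1.49. Scaled to the array median the 3 lists held 17, 10 and 3 fallen genes, and with slide as a block 18, 10 and 3, with Egr4 and Epgn among those lost under the block, Epgn also under median scaling.

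Chemokines and cytokines, the secreted signals that recruit and activate leukocytes, showed the lowest median of the lists, -2.93, with 19 of 23 genes fallen and 1 risen. At 4 hr 17 of the 23 were above all untreated arrays, and at 24 hr 21 were below them. Cxcl1, a neutrophil chemokine, with its probe at chr5:90882059-90882118, was 5.91, 5.89 and 5.87 on the 4 hr arrays and 2.16, 2.45 and 2.28 on the 24 hr arrays, against 4.32, 4.27 and 4.11 on the untreated arrays. Cxcl1 thus fell by 3.60 ± 0.083 (adjusted p = 2.22e-12), with no overlap between the times. Il6, interleukin-6, with its probe at chr5:29052734-29052793, was 2.29, 2.17 and 2.31 on the 4 hr arrays and -1.09, -0.99 and -1.17 on the 24 hr arrays, against 0.40, 0.45 and 0.33 on the untreated arrays. Il6 thus fell by 3.34 ± 0.055 (adjusted p = 1.6e-13), with no overlap between the times. Both crossed from above to below untreated cells. Ccl20 fell by 4.53 ± 0.15, and Ccl2, a monocyte chemokine, by 2.30 ± 0.051. Csf2 (GM-CSF) fell at least 13.7-fold, Tnf at least 11-fold and Cxcl2 at least 6.53-fold, since none was well above background at 24 hr. Such genes passed the filter through the 4 hr arrays, which favors a fall, and the list median includes them. With only probes above background on all 6 arrays, 15 genes fell and 1 rose. Tnfsf10, the death ligand TRAIL, was the member that rose, by 1.86 ± 0.057. Scaled to the median 17 fell, and with slide as a block 14, with Cxcl2 among those lost.

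Cxcl1 and Cxcl2 lie next to each other on chromosome 5, and their promoters are shown because both carry the same 10 letters that NF-kB binds. The 250 bases before each RefSeq start site (GRCm38.p6, both on the + strand) follow, with matches to GGGA, any base and TTTCC on either strand in capitals. Cxcl1 is at chr5:90890995-90891244 and Cxcl2 at chr5:90903649-90903898.
Cxcl1: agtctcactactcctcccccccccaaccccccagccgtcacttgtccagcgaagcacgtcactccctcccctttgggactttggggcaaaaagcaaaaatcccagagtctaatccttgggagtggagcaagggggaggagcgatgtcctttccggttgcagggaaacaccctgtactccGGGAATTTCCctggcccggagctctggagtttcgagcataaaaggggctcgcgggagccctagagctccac
Cxcl2: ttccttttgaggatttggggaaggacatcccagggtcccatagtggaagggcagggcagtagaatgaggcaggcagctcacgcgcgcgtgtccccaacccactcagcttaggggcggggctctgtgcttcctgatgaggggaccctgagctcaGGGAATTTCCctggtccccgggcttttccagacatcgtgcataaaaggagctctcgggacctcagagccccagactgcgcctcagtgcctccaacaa
The motif was found in 5 of 22 such windows of the cytokine list (22.7%) and in 0.356% of all 32851 windows. AP-1 sites, TGANTCA, were in 22.7% of the list's windows and in 6.75% of all, and in 6 of 16 windows of metalloproteinases and inhibitors (37.5%).

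The NF-kB subunits and inhibitors changed less, with 5 of 15 fallen and 2 risen and a median of -0.26. Nfkbia, the inhibitor that NF-kB itself induces, fell by 1.29 ± 0.081, Nfkb1 by 1.94, Nfkbiz by 1.96 and Tnfaip3 (A20) by 1.81. Bcl3, a coactivator, rose by 0.96 ± 0.092 and lay below untreated cells at both times. Median scaling gave 3 fallen and 5 risen genes, Nfkbia not among them, and slide as a block 5 and none. Bcl3 no longer passed with slide as a block. Among genes of prostaglandin synthesis 6 of 13 fell, Ptgs2 furthest, and none rose.

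Acute phase genes and C/EBP factors fell in 16 of 19 cases, with a median of -2.59 and none risen. These genes are better known from liver, and fibroblasts express part of them. Saa3, serum amyloid A3, with its probe at chr7:42888862-42888921, was 4.53, 4.59 and 4.58 on the 4 hr arrays and 0.42, 0.31 and 0.40 on the 24 hr arrays, against 4.56, 4.48 and 4.51 on the untreated arrays. Saa3 thus fell by 4.19 ± 0.044 (adjusted p = 9.23e-15), with no overlap between the times. C3, complement component 3, with its probe at chr17:55414567-55414626, was 7.94, 7.98 and 7.89 on the 4 hr arrays and 5.05, 5.09 and 4.77 on the 24 hr arrays, against 8.10, 8.05 and 8.14 on the untreated arrays. C3 thus fell by 2.97 ± 0.074 (adjusted p = 4.18e-12), with no overlap between the times. At 4 hr neither had moved far from untreated cells, and at 24 hr 18 of the 19 genes were below all untreated arrays. Lcn2 (lipocalin 2) fell by 2.82, Cfb (complement factor B) by 4.04 and Serpina3n by 4.10. Cebpb, a factor of this program, fell by 0.71 ± 0.066, which did not pass under median scaling or with slide as a block, and Serpina3n did not pass under the block. Counts were 13 under median scaling and 12 with the block.

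Heat shock genes fell in 15 of 18 cases (median -0.83), and 1 rose. Hspa1a, an inducible HSP70, with its probe at chr17:33066911-33066970, was 6.46, 6.59 and 6.58 on the 4 hr arrays and 4.34, 4.37 and 4.27 on the 24 hr arrays, against 2.90, 2.91 and 2.94 on the untreated arrays. Hspa1a thus fell by 2.22 ± 0.042 (adjusted p = 5.09e-13), with no overlap between the times. Hsph1 fell by 2.11, the co-chaperone Bag3 by 1.96 and Dnajb4 by 1.88. Hspa4l was the member that rose, by 1.11 ± 0.030. At 24 hr 12 of the 18 were above all untreated arrays, against 16 at 4 hr. The heat shock element, searched as GAA, TTC and GAA with 2 free bases between them on both strands, was in 2 of 20 windows of this list (10%) and in 0.466% of all. Under median scaling 8 genes fell, and with slide as a block 9.

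The integrated stress response moved both ways, with 8 of 19 genes fallen and 3 risen. Sesn2 fell by 1.60 ± 0.10, Ddit3 (CHOP) by 1.202 ± 0.071, Chac1, which degrades glutathione, by 1.06 and Ppp1r15b by 1.46. Trib3 rose by 0.68 ± 0.050 and Atf5 by 1.30 ± 0.074. At 24 hr 16 of the 19 were above all untreated arrays, as 17 were at 4 hr. Slide as a block gave 4 fallen and 1 risen, and median scaling 2 and 3. In the latter Ddit3 and Chac1 no longer passed. Normexp background correction left 2 fallen and none risen, and a fit of the 6 co-exposure arrays alone left none altered. In the endoplasmic reticulum 9 of 21 chaperone and unfolded protein response genes fell and 1 rose. Hspa5 (BiP), the main chaperone of that compartment, fell by 1.68 ± 0.078 and Dnajb9 by 1.60 ± 0.069. The balance turned under median scaling, with 3 fallen and 4 risen, and slide as a block gave 4 fallen and none risen.

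Ribosome biogenesis genes fell in 23 of 35 cases with none risen, and the falls were moderate, with a median of -0.70. Nop14 fell by 1.48, Nop2, which methylates ribosomal RNA, by 1.40, Utp4 by 1.35 and Polr1b, a subunit of RNA polymerase I, by 1.34. Nop2 stood at 6.42 at 4 hr, 5.02 at 24 hr and 3.52 in untreated cells. Of the 35 genes 34 were above all untreated arrays at 4 hr and 32 at 24 hr. The count fallen was 9 under median scaling and 11 with slide as a block.

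NRF2 targets fell in 17 of 30 cases and rose in 4, with a median of -0.68. Hmox1, heme oxygenase 1, with its probe at chr8:73642229-73642288, was 9.36, 9.40 and 9.18 on the 4 hr arrays and 4.98, 4.97 and 4.88 on the 24 hr arrays, against 2.94, 2.90 and 3.06 on the untreated arrays. Hmox1 thus fell by 4.37 ± 0.063 (adjusted p = 6.4e-14), with no overlap between the times. It stayed above untreated cells at both times. Its probe was saturated on 1 of the 3 arrays at 4 hr, so that the fall may be understated. Srxn1, which repairs oxidized peroxiredoxins, with its probe at chr2:151852040-151852099, was 7.29, 7.38 and 7.28 on the 4 hr arrays and 4.21, 4.26 and 3.96 on the 24 hr arrays, against 2.60, 2.51 and 2.45 on the untreated arrays. Srxn1 thus fell by 3.17 ± 0.072 (adjusted p = 1.93e-12), with no overlap between the times. Of the subunits of the enzyme that limits glutathione synthesis, Gclc fell by 3.40 and Gclm fell by 2.05. Slc7a11, which imports cystine, fell by 3.21, Txnrd1 (thioredoxin reductase 1) by 2.49 and Osgin1 by 3.26. Nqo1 fell by 0.65 ± 0.051, which did not pass under median scaling or with slide as a block. The 4 that rose were Gsta3, by 1.45, Cbr1, by 0.99, Ephx1, by 0.96, and Taldo1, by 0.69. Gsta1, a glutathione transferase, was 0.55 ± 0.06 higher, which did not pass, and stood at 1.26 at 4 hr and 1.81 at 24 hr against -5.57 in untreated cells. Of the 30 genes 24 were above all untreated arrays at 4 hr and 23 at 24 hr. Median scaling gave 11 fallen and 7 risen, the slide block 12 and 2, and under the block Gsta3 and Taldo1 no longer passed.

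The promoter of Srxn1 is shown for the AP-1 letters, which resemble the core of the antioxidant response element that NRF2 binds. The window is chr2:152105274-152105523 on the + strand, the 250 bases before the RefSeq start site in GRCm38.p6. Capitals mark TGANTCA (AP-1) on either strand. The antioxidant response element, searched as TGACNNNGC on both strands, was not found in this window.
Srxn1: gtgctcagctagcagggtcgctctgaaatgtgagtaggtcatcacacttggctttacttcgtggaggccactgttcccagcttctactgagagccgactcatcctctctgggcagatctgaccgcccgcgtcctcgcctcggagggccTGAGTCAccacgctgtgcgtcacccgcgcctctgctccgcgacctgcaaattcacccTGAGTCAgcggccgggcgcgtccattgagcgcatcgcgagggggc
The antioxidant response element was in 9 of 33 windows of the list (27.3%) and in 10.2% of all windows, and TGANTCA in 5 of 33 (15.2%) against 6.75%. Other lists held the element as often, with 8 of 25 windows of immediate early factors (32%) and 7 of 23 of TGF-beta and BMP signaling (30.4%).

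Genes of sterol and fatty acid synthesis fell in 26 of 32 cases with none risen, and the median change was -2.26. Hmgcs1, HMG-CoA synthase, with its probe at chrUn_random:9357630-9357689, was 7.17, 7.07 and 7.04 on the 4 hr arrays and 2.30, 2.38 and 2.26 on the 24 hr arrays, against 4.50, 4.52 and 4.38 on the untreated arrays. Hmgcs1 thus fell by 4.78 ± 0.055 (adjusted p = 1.18e-14), with no overlap between the times. Insig1, which holds SREBP in the endoplasmic reticulum, with its probe at chr5:27110161-27110220, was 1.45, 1.44 and 1.42 on the 4 hr arrays and -3.09, -2.99 and -2.99 on the 24 hr arrays, against -1.43, -1.49 and -1.47 on the untreated arrays. Insig1 thus fell by 4.46 ± 0.042 (adjusted p = 9.09e-15), with no overlap between the times. Both went from above to below untreated cells. Further along the pathway, Idi1 fell by 4.51, Sqle (squalene epoxidase) by 3.62 and Cyp51, which demethylates lanosterol, by 4.67. Fasn, fatty acid synthase, fell by 2.43 ± 0.037 and Srebf2, the gene of SREBP2, by 1.68 ± 0.085. At 4 hr 24 of the 32 were above all untreated arrays, and at 24 hr 29 were below them and none above. The falls changed little with the settings, 23 under median scaling and 24 with slide as a block.

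Promoters of Hmgcs1 and Idi1, early enzymes of the pathway, are shown since sterol genes are known for paired sterol and CCAAT elements. They are chr13:119690101-119690350 and chr13:8885356-8885605, 250 bases on the + strand of GRCm38.p6 before the RefSeq start sites. Capitals mark TCACNCCAC, a form of the sterol regulatory element, and CCAAT, on either strand.
Hmgcs1: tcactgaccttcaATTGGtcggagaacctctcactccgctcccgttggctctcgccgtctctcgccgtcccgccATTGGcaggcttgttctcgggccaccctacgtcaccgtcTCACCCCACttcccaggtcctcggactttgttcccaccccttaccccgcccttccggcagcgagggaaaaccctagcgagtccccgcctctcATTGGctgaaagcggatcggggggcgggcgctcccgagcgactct
Idi1: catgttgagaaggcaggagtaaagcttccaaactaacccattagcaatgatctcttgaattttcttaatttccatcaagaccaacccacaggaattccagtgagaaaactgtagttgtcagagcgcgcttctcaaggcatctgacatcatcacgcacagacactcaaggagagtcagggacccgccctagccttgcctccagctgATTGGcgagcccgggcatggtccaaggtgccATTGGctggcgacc
The sterol element as spelled was in 1 of 27 windows of the list (3.7%), that of Hmgcs1, and in 1.05% of all. CCAAT was in 19 of 27 (70.4%) against 33.8% of all, and in 16 of 18 windows of endoplasmic reticulum chaperone genes (88.9%).

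Matrix genes fell broadly. Of 31 collagens and fibrillar matrix genes 28 fell and none rose, with a median of -1.40. Lum, lumican, a proteoglycan of collagen fibrils, with its probe at chr10:97135063-97135122, was 4.78, 4.81 and 4.84 on the 4 hr arrays and 0.91, 0.95 and 1.03 on the 24 hr arrays, against 5.45, 5.43 and 5.36 on the untreated arrays. Lum thus fell by 3.85 ± 0.040 (adjusted p = 9.23e-15), with no overlap between the times. Col3a1, collagen III, with its probe at chr1:45585395-45585454, was 7.17, 7.03 and 7.06 on the 4 hr arrays and 5.07, 4.91 and 5.14 on the 24 hr arrays, against 7.35, 7.36 and 7.39 on the untreated arrays. Col3a1 thus fell by 2.04 ± 0.065 (adjusted p = 3.48e-11), with no overlap between the times. Both had been slightly under untreated cells at 4 hr, and at 24 hr 30 of the 31 genes were below all untreated arrays. Col5a3 fell by 3.08, Lox, which crosslinks collagen, by 2.96, the related Loxl2 fell by 2.81, Dcn (decorin) by 2.43, Col1a1 by 1.36 and Fn1 (fibronectin) by 0.84. Median scaling gave 18 fallen and ended the call of Fn1, and slide as a block gave 25. Of the 13 fibroblast markers, which overlap this list, 9 fell and none rose, against 3 fallen under median scaling.

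Among matrix metalloproteinases and inhibitors 13 of 22 fell and 4 rose. Mmp2 fell by 2.34, Mmp3 by 1.94 and the inhibitor Timp1 by 1.99. Mmp11 rose by 2.45 ± 0.036 and Adamts5, an aggrecanase, by 1.24 ± 0.062, both to levels below untreated cells, beside Mmp15 described above. With slide as a block 2 rose, Adamts5 not among them. Contractile genes fell in 13 of 25 cases, and none rose, against 9 fallen and 2 risen under median scaling. Cnn1 (calponin) fell by 3.88, Tagln (transgelin) by 3.39, Actc1, a cardiac actin, fell by 3.29 and Myl9, a myosin light chain, by 3.00.

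TGF-beta and BMP signaling showed 18 of 27 genes fallen and none risen, and the median was -1.13. Bmp2 fell by 3.07 ± 0.062, Inhba, an activin subunit, by 2.47 ± 0.057, Smad7, the inhibitor that TGF-beta induces, by 2.42 ± 0.22 and Tgfb2 by 1.90. Ccn2, a matrix protein that TGF-beta induces, fell by 1.84. Bmp4, with mean levels of -0.0025 at 4 hr and -0.014 at 24 hr, did not pass and was below untreated cells at both times. Median scaling gave 11 fallen genes. Smad7 no longer passed without 5 of the 6 arrays taken 1 at a time. Wnt receptors and targets moved both ways, with 10 of 21 fallen and 4 risen. The secreted Wnt inhibitor Sfrp1 fell by 3.17 and its relative Sfrp2 fell by 2.99. Of the Frizzled receptors, Fzd1 fell by 2.49, whereas Fzd2 rose by 1.86 and Fzd6 by 2.03, the last no longer past the threshold with slide as a block, under which 1 gene of the list rose.

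**Figure D2:**
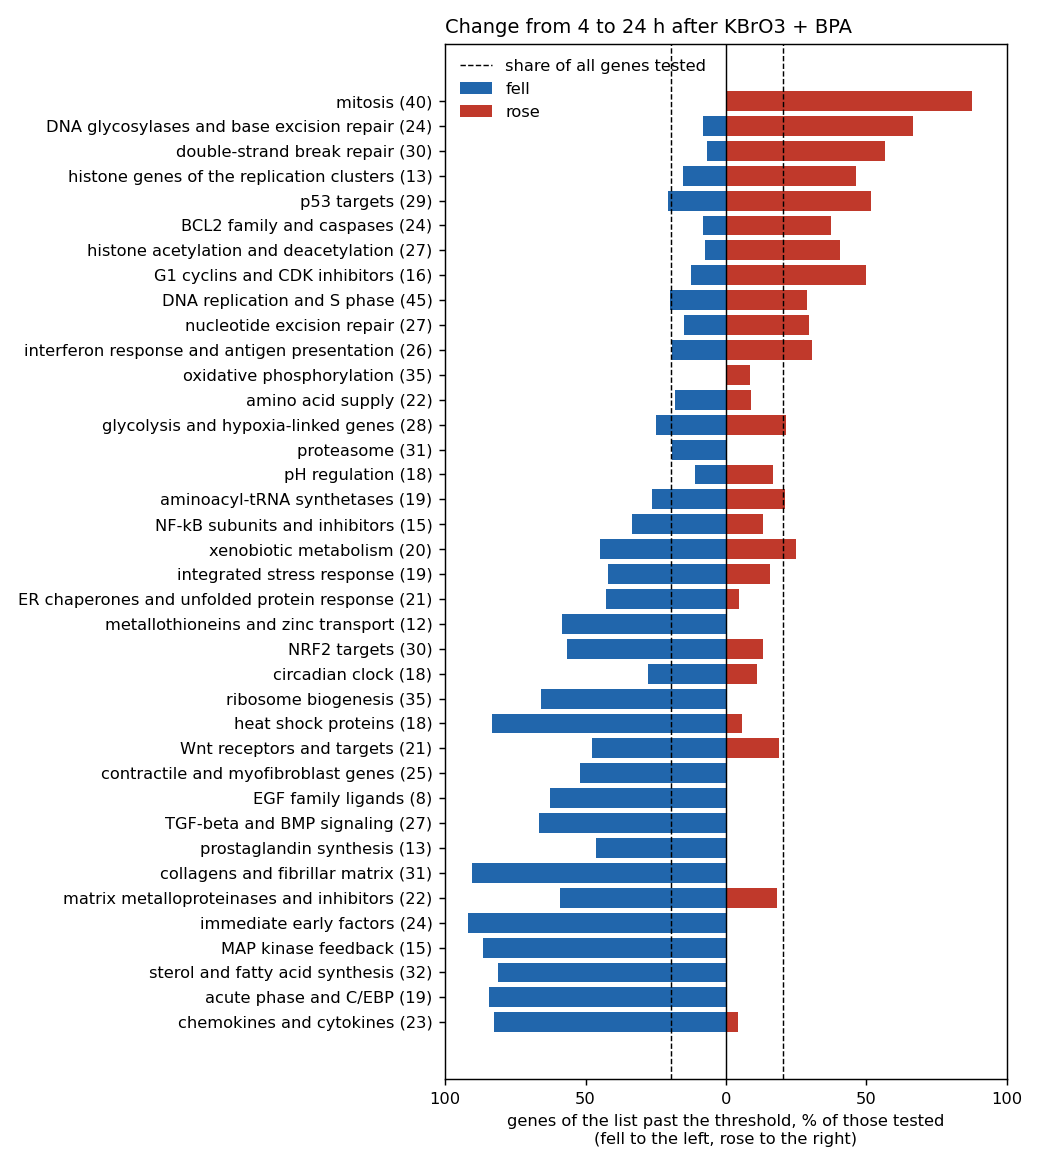
Share of each gene list's tested genes that rose (right) and fell (left) from 4 to 24 hr after KBrO3 + BPA, in percent, with the number tested in brackets and dashed lines at the shares over all genes tested (20.3% and 19.5%). Lists are ordered by the median change, from mitosis, with 35 of 40 risen, to chemokines and cytokines, with 19 of 23 fallen.

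Mitotic genes had the highest share of risen genes among the lists plotted, with 35 of 40 risen and none fallen and a median of 1.17. Plk1, polo-like kinase 1, with its probe at chr7:118093971-118094030, was 1.199, 1.19 and 1.197 on the 4 hr arrays and 3.47, 3.57 and 3.32 on the 24 hr arrays, against 3.74, 3.70 and 3.68 on the untreated arrays. Plk1 thus rose by 2.26 ± 0.055 (adjusted p = 3.42e-12), with no overlap between the times. Ccnb1, cyclin B1, with its probe at chr13:97885282-97885341, was -0.23, -0.22 and -0.21 on the 4 hr arrays and 1.57, 1.46 and 1.55 on the 24 hr arrays, against 1.36, 1.32 and 1.39 on the untreated arrays. Ccnb1 thus rose by 1.75 ± 0.041 (adjusted p = 2.72e-12), with no overlap between the times. Both had been under untreated cells at 4 hr. Cdc25b, the phosphatase that activates CDK1, rose by 2.52, Ect2 by 2.03, Kif2c by 1.95, Cdc20 by 1.12 and the proliferation marker Mki67 by 0.64 ± 0.046. At 4 hr 38 of the 40 were below all untreated arrays. At 24 hr 18 were above them and 14 below. Under median scaling 37 rose. Under the slide block 22 rose, Mki67 not among them.

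The promoters of Plk1 and Cdc20 are shown for CCAAT, which both hold. They are 250 bases before the RefSeq start sites in GRCm38.p6, chr7:122159185-122159434 on the + strand and chr4:118437344-118437593 on the - strand. Capitals mark CCAAT and TTTGAA, the cell cycle homology region (CHR), on either strand. The Plk1 window held CCAAT but not TTTGAA.
Plk1: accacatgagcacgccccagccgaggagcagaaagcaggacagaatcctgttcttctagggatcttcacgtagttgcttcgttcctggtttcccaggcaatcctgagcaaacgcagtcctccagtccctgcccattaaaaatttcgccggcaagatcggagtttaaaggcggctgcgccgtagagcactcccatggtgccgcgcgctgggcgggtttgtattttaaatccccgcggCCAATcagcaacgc
Cdc20: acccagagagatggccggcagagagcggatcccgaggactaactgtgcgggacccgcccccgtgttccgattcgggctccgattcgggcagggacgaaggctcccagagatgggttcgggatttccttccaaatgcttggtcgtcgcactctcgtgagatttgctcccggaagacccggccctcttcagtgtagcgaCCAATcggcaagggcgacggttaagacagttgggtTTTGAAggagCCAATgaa
CCAAT was in 28 of 36 windows of mitotic genes (77.8%) and the cell cycle homology region in 13 of 36 (36.1%), against 33.8% and 16% of all windows.

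Genes of DNA replication and S phase were split, with 13 of 45 risen and 9 fallen. Tk1, thymidine kinase, rose by 2.48 ± 0.066 and E2f2 by 1.37 ± 0.062. Orc1, of the origin recognition complex, fell by 1.72 ± 0.048, the cyclin Ccne1 by 1.00, the cyclin Ccne2 fell by 1.05, Rrm2 by 0.87 and Pcna, the polymerase clamp, by 0.75. These fallen genes had all been above untreated cells at 4 hr, and those other than Orc1 did not pass under median scaling, which gave 20 risen and 1 fallen. The slide block gave 6 risen and 3 fallen, and E2f2, Ccne1, Ccne2 and Rrm2 did not pass. Among G1 cyclins and inhibitors 8 of 16 rose and 2 fell, against 3 risen and none fallen with slide as a block. Ccnd1 (cyclin D1) rose by 1.49 ± 0.055 and the inhibitor Cdkn2d by 2.81 ± 0.11, and Cdkn1c, another inhibitor, fell by 0.90, a call that ended under median scaling and under the slide block. Of 13 histone genes of the replication clusters 6 rose (3 with slide as a block), 2 fell and 1 had probes in both directions. The linker histones H1f5 and H1f4 rose by 2.83 and 2.28, and H1f2 fell by 1.202, a call lost under both of those settings. Members of these clusters share sequence, and their probes may read more than 1 gene.

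Repair of oxidized DNA bases had a high share of risen genes. Of 24 glycosylase and base excision repair genes, the pathway that removes oxidized bases, 16 rose and 2 fell, with a median of 1.00. Ogg1, the glycosylase that excises 8-oxoguanine, with its probe at chr6:113495019-113495078, was 0.20, 0.13 and 0.17 on the 4 hr arrays and 2.01, 2.14 and 1.86 on the 24 hr arrays, against 1.22, 1.17 and 1.02 on the untreated arrays. Ogg1 thus rose by 1.84 ± 0.072 (adjusted p = 1.99e-10), with no overlap between the times. Mutyh, which removes adenine opposite 8-oxoguanine, with its probe at chr4:116194238-116194379, was -2.25, -2.27 and -2.36 on the 4 hr arrays and -0.48, -0.61 and -0.61 on the 24 hr arrays, against -1.31, -1.26 and -1.12 on the untreated arrays. Mutyh thus rose by 1.73 ± 0.059 (adjusted p = 6.54e-11), with no overlap between the times. Both went from below to above untreated cells. Neil1, a glycosylase for oxidized pyrimidines, rose by 1.59, the gap-filling polymerase Poll by 1.96 and Parp1, a sensor of DNA breaks, by 1.11. Ung, which removes uracil, fell by 0.98 ± 0.068. In the list 16 genes were below all untreated arrays at 4 hr, and 18 above them at 24 hr. Median scaling gave 16 risen and ended the call of Ung, and slide as a block gave 14. Only 7 rose with normexp background correction, and 4 in a fit of the 6 co-exposure arrays alone.

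Double-strand break repair genes rose in 17 of 30 cases and fell in 2. Rad51d, which acts in homologous recombination, rose by 2.62 ± 0.19, Rad54b by 1.83 and the nuclease subunit Eme1 by 1.98. Exo1, a resection nuclease, fell by 0.81. Xrcc6 rose by 1.06 ± 0.052 and Xrcc5, the gene of its partner Ku80, by 0.76 ± 0.062. Only 9 genes rose with slide as a block, and Eme1, Exo1, Xrcc6 and Xrcc5 no longer passed. Exo1 did not pass under median scaling either. Nucleotide excision repair stood closer to the background, with 8 of 27 risen and 4 fallen. Ddb2, a damage sensor, rose by 1.03, whereas of the genes that act at stalled RNA polymerase Ercc6 fell by 1.76 and Ercc8 fell by 1.11. Slide as a block gave 4 risen, and the call of Ercc8 was lost under median scaling, which gave 2 fallen.

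Of 29 p53 targets 15 rose and 6 fell, with a median of 0.69. Ccng1, cyclin G1, with its probe at chr11:40691782-40691841, was -0.032, -0.10 and 0.10 on the 4 hr arrays and 2.13, 2.03 and 2.42 on the 24 hr arrays, against 0.0095, 0.11 and 0.15 on the untreated arrays. Ccng1 thus rose by 2.21 ± 0.092 (adjusted p = 3.64e-10), with no overlap between the times. Phlda3, an inhibitor of AKT, with its probe at chr1:135655060-135655119, was 3.66, 3.73 and 3.71 on the 4 hr arrays and 5.59, 5.65 and 5.34 on the 24 hr arrays, against 4.48, 4.44 and 4.45 on the untreated arrays. Phlda3 thus rose by 1.83 ± 0.070 (adjusted p = 1.69e-10), with no overlap between the times. At 24 hr both were above untreated cells. Polk, a translesion polymerase, rose by 2.14, Bbc3 (PUMA), a pro-apoptotic protein, by 2.10 and Bax by 1.01. Mdm2, the ligase that degrades p53, with its probe at chr10:117200593-117200652, was 2.69, 2.66 and 2.70 on the 4 hr arrays and 3.28, 3.32 and 3.35 on the 24 hr arrays, against 1.11, 0.93 and 0.88 on the untreated arrays. Mdm2 thus rose by 0.63 ± 0.058 (adjusted p = 6.13e-07), with no overlap between the times. Cdkn1a, the CDK inhibitor p21, was 3.55, 3.61 and 3.62 at 4 hr and 3.56, 3.54 and 3.27 at 24 hr, groups that overlapped, against 0.70, 0.61 and 0.72 in untreated cells. Pmaip1 (NOXA) likewise was high at both times, with means of 2.36 and 2.25 against 0.056. The kinase gene Plk2 fell by 2.66, Plk3 fell by 2.36 and Gadd45a by 1.27, all of them higher than untreated cells at both times. On the 24 hr arrays 24 of the 29 targets were above all untreated arrays, against 15 at 4 hr. Of the targets 3 fell both with slide as a block and under median scaling. The block gave 10 risen, and the calls of Mdm2 and Gadd45a ended, that of Gadd45a under median scaling too. Mdm2 no longer passed without 4 of the 6 arrays taken 1 at a time. Among BCL2 family and caspase genes 9 of 24 rose and 2 fell, and under median scaling 12 rose and none fell. Apaf1, the scaffold of the apoptosome, rose by 1.78, and Mcl1, a survival factor, fell by 0.82, calls that ended with slide as a block and, for Mcl1, under median scaling.

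Further lists follow with their counts. Among hypoxia-linked and glycolytic genes 6 of 28 rose and 7 fell, with Vegfa, the vascular growth factor, down by 3.03, Adm (adrenomedullin) down by 2.87 and the mitophagy receptor Bnip3 up by 1.26. Of 18 circadian clock genes 5 fell and 2 rose. Dbp, a clock output factor, rose by 2.33 ± 0.067, while Bhlhe40 fell by 1.96, Arntl (BMAL1) by 1.87 and Per2 by 1.12. Interferon response genes rose in 8 of 26 cases and fell in 5, with Oas1a up by 1.33, Oasl1 down by 1.34 and Rsad2 down by 1.13. Genes listed under histone acetylation and deacetylation, with sirtuins that need not act on histones, rose in 11 of 27 cases and fell in 2. Hdac11 was up by 2.48, the sirtuin genes Sirt4 and Sirt5 were up by 2.04 and 1.80, and Sirt1 was down by 1.05. Of 35 oxidative phosphorylation genes 3 rose and none fell, with a median of 0.17, and 6 of 31 proteasome genes fell. Median scaling turned the proteasome to none fallen and 3 risen, slide as a block left none altered, and 7 oxidative phosphorylation genes rose under median scaling. Metallothioneins and zinc transporters fell in 7 of 12 cases, and of 20 xenobiotic genes 9 fell and 5 rose, Ahrr, the repressor of the aryl hydrocarbon receptor, by 1.93. Under median scaling 2 metallothionein and zinc genes fell, and the xenobiotic list turned to 6 fallen and 8 risen, with 6 and 3 under the slide block. That scaling gave 9 risen hypoxia-linked genes, 3 fallen clock genes, 2 fallen interferon genes and 17 risen acetylation genes, and slide as a block gave 2 risen hypoxia-linked genes, 3 fallen clock genes, 5 risen interferon genes and 5 risen acetylation genes. Per2, Bnip3, Hdac11 and Sirt1 no longer passed with slide as a block, nor Per2 and Rsad2 under median scaling.

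**Figure D3:**
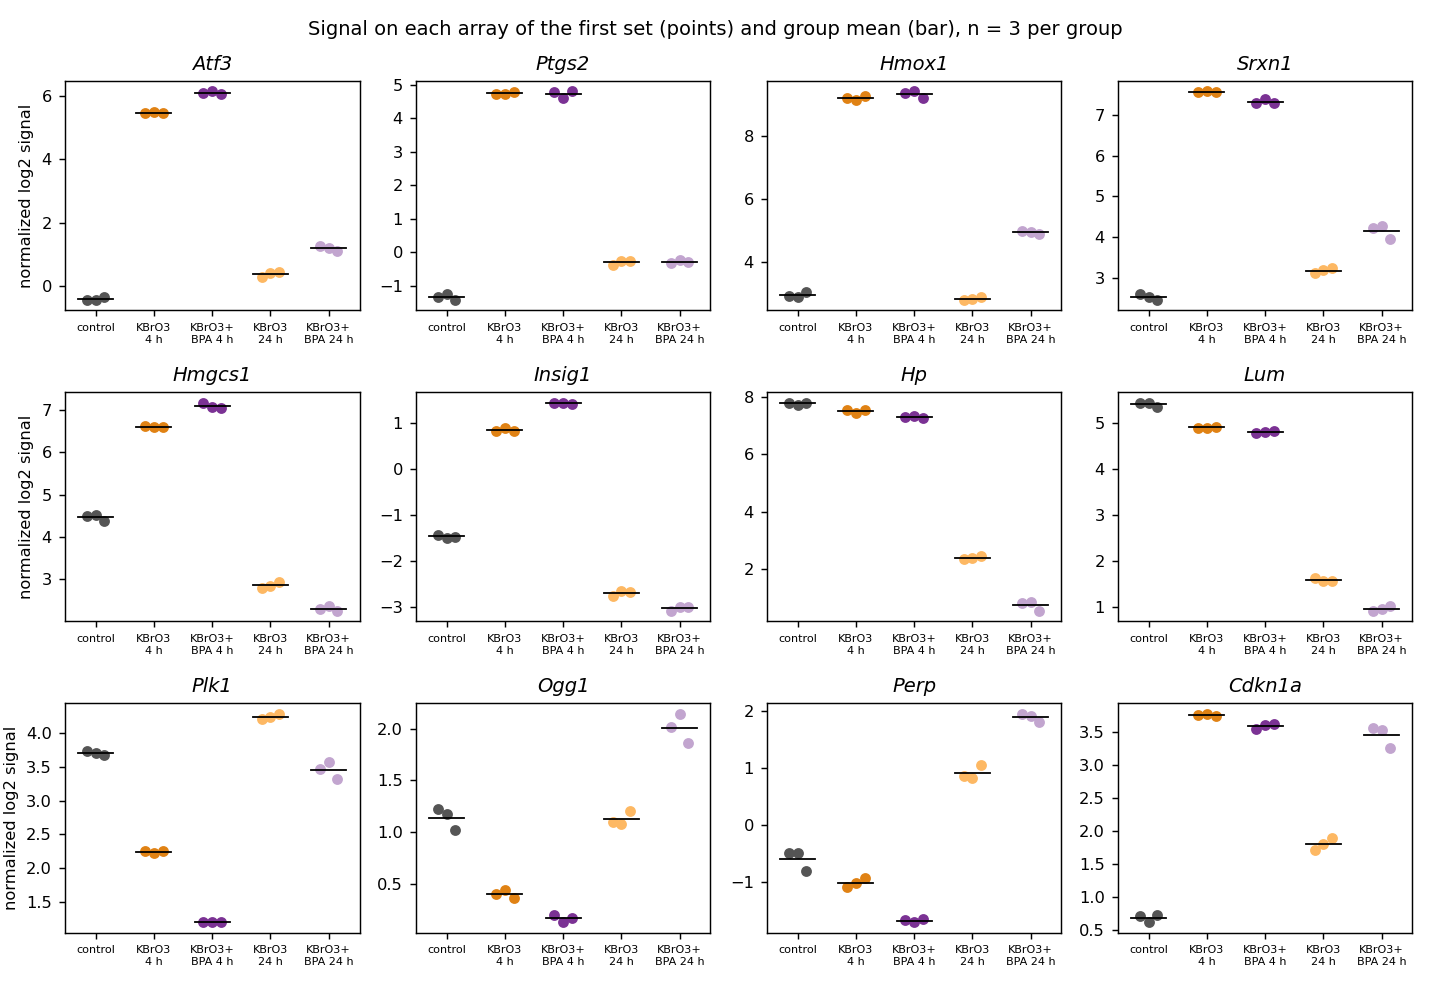
Normalized log2 signal (y axis, relative to each array's 75th percentile) of 12 genes on each of the 15 arrays of the first set, with points for arrays and bars for the mean of 3. Hmox1, Srxn1 and Atf3 stood between their 4 hr and untreated levels at 24 hr with BPA, Hmgcs1, Insig1, Hp and Lum below untreated cells, and Cdkn1a overlapped between 4 and 24 hr with BPA.

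Position against untreated cells separated the changes into classes. Among altered genes above background on all 6 arrays, 2135 fell, of which 729 (34.1%) stayed above all 3 untreated arrays, 615 (28.8%) passed from above to below them, 405 (19%) were below at both times and 295 (13.8%) came to overlap them. Ribosome biogenesis and NRF2 targets were mostly of the class that stayed above, and sterol genes and cytokines of the class that crossed. Of 2509 that rose, 1094 (43.6%) passed from below to above, 637 (25.4%) stayed below, 548 (21.8%) came to overlap and 122 (4.86%) were above at both times. Base excision repair genes were mostly of the first class, and mitotic genes were spread over it and the others. At 4 hr only 4.26% of the fallen and 4.3% of the risen genes overlapped the untreated arrays. Lying wholly above or below them was thus the rule among altered genes. Since the untreated arrays are labeled 4 hr, time in culture and treatment cannot be told apart at 24 hr.

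**Figure D4:**
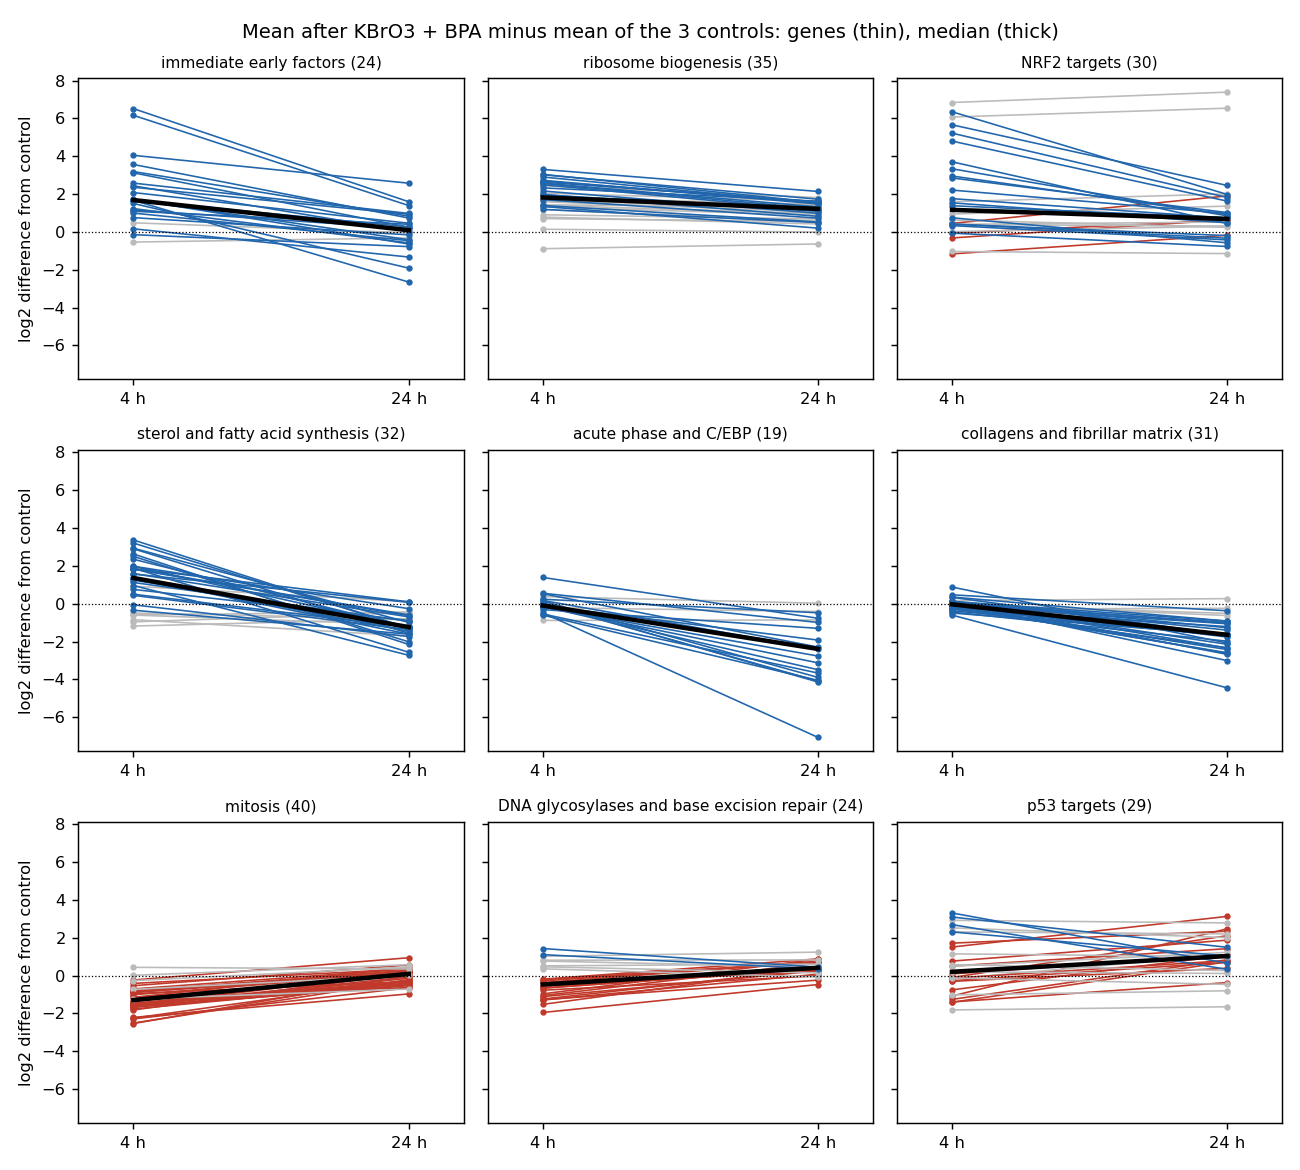
Mean log2 signal after KBrO3 + BPA minus the mean of the 3 untreated arrays (y axis) at 4 and 24 hr for each gene of 9 lists (thin lines, red for risen, blue for fallen, gray for neither) and their median (thick line), with the number of genes in brackets. Sterol genes crossed from above to below untreated cells, and ribosome biogenesis genes stayed above.

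The change over time was then set against that in cells given KBrO3 without BPA, as the difference between both changes in the same fit. KBrO3 alone altered 4884 genes from 4 to 24 hr (35.5%), 2251 risen and 2613 fallen, and its list medians were, for example, 1.42 for mitosis, -1.60 for sterol synthesis and -2.52 for cytokines. The changes with and without BPA differed for 865 genes (6.29% of those tested, and 36.3% at the Benjamini-Hochberg limit), 520 with a higher value with BPA (3.78%) and 344 with a lower value (2.5%), the same threshold applied. With slide as a random block the number was 388, and it was 478 under median scaling, of which 412 were higher and 66 lower. No fit with slide as a fixed block could be made for this difference, and it ranged from 509 to 1586 when 1 array was left out. The arrays of KBrO3 alone at 4 hr were on a slide apart from all co-exposure arrays. Slide and BPA therefore cannot be told apart at 4 hr, which bears on every difference below.

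NRF2 targets differed in 14 of 30 cases, all with a higher value with BPA. Hmox1 stood at 9.19, 9.13 and 9.25 at 4 hr and 2.80, 2.83 and 2.89 at 24 hr without BPA, where it fell by 6.35, and with BPA it fell by 4.37. The difference between the changes was 1.98 ± 0.089 (adjusted p = 3.61e-08). The fall was thus smaller with BPA. The Hmox1 probe was saturated on 1 array at 4 hr with BPA and on none without it, so that this difference may be overstated. Gsta1 had a change of -1.30 without BPA and 0.55 with it, a difference of 1.85 ± 0.085 (adjusted p = 4e-08). Gsta4 had a change of -1.75 without BPA and 0.41 with it, a difference of 2.16 ± 0.063 (adjusted p = 1.56e-09). The differences were 1.23 for Srxn1, 1.25 for Gclm, 1.08 for Osgin1, 1.05 for Slc7a11, 1.33 for Ephx1, 0.84 for Cbr1 and 0.87 for Taldo1. Under median scaling 10 NRF2 targets were higher, with slide as a random block 11, with a replicate block 8 and without 1 array 9 to 14 (9 without any of the 3 arrays of KBrO3 + BPA at 4 hr, the 3 of KBrO3 alone at 4 hr, KBrO3 + BPA 24 hr replicate 1 or KBrO3 24 hr replicate 2), but none with normexp background correction, under which 45 genes differed in all. Osgin1 and Taldo1 passed neither under median scaling nor with the random block.

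The p53 targets differed in 12 of 29 cases toward higher values with BPA and in 1 toward lower ones. Cdkn1a without BPA was 3.76, 3.78 and 3.74 at 4 hr and 1.72, 1.80 and 1.89 at 24 hr, groups that did not overlap. Its difference was 1.82 ± 0.10 (adjusted p = 1.75e-07), from a change of -1.96 without BPA and -0.14 with it. Mdm2 and Pmaip1 followed the same order, with differences of 1.70 ± 0.082 and 1.74 ± 0.096. The change of Phlda3 without BPA was -0.078, a difference of 1.91 ± 0.099. The differences of Perp, Bbc3 and the apoptosome gene Apaf1 were 1.64, 1.17 and 1.66. Under median scaling 11 p53 targets were higher, with slide as a random block 9 (Bbc3 not among them, and Apaf1 did not pass either) and with normexp 5. None was lower in these 3 settings.

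**Figure D5:**
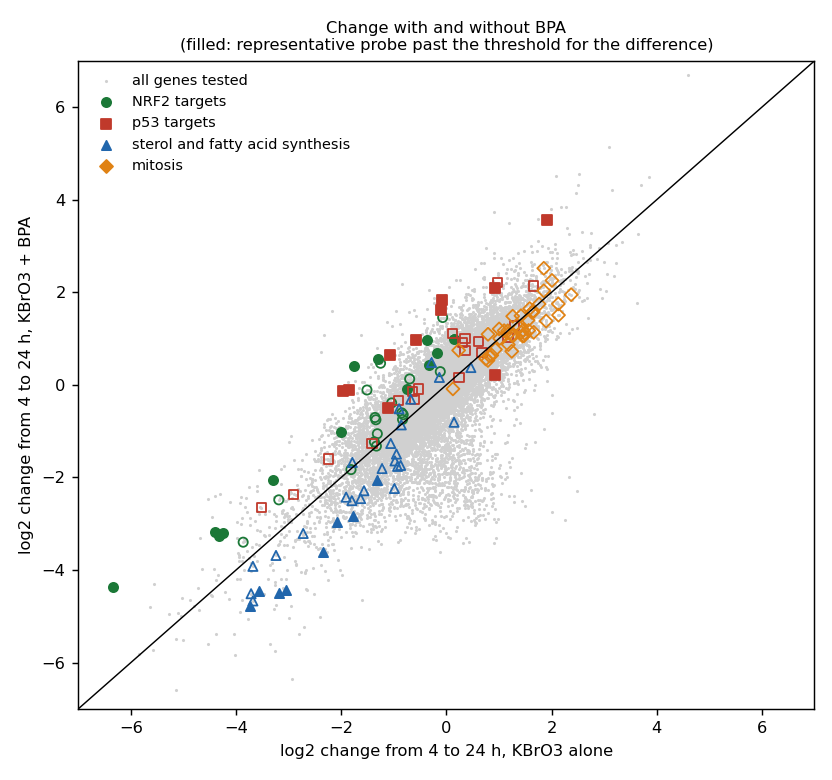
Log2 change from 4 to 24 hr with KBrO3 alone (x axis) and with KBrO3 + BPA (y axis) for each representative probe, with 4 lists marked and filled symbols where the difference passed the threshold. NRF2 and p53 targets that passed lay above the diagonal but for 1 p53 target, and sterol genes that passed lay below it.

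Single genes with the largest differences came from several groups. Ddit4l, an inhibitor of mTOR signaling, rose by 2.19 with BPA, and its change without BPA was -0.84, a difference of 3.03 ± 0.085. Tbc1d2 differed by 2.38, Car6 by 2.30, Psrc1 by 2.19, Gdf15, a stress-induced cytokine, by 2.11, the potassium channel gene Kcnj4 by 2.11 and Chchd10, a mitochondrial protein, by 2.07. In the other direction Slco4a1, an organic anion transporter, fell by 4.66 with BPA, and its change without BPA was -1.61, a difference of -3.05 ± 0.10. Rspo2, an activator of Wnt signaling, differed by -2.502, Aspn by -2.58, the cytokine Tslp by -2.44, Bmp2 by -2.32, Ndnf by -2.28, Dpt by -2.23 and the ATP-gated channel gene P2rx5 by -2.08. These are the 8 largest in each direction among genes above background on all 12 arrays, Gsta4 included. Car6 and Chchd10 no longer passed with slide as a random block.

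Genes of sterol synthesis had a lower value with BPA in 15 of 32 cases and a higher one in none. The difference was -1.27 ± 0.060 for Sqle, -1.05 for Hmgcs1 and -0.91 for Insig1, so that each fell further with BPA. Collagens and fibrillar matrix genes had 7 lower of 31, Lox with -1.66, and contractile genes 9 of 25, Myl9 with -1.22, Actc1 with -1.28 and Cnn1 with -1.01. Hp differed by -1.44 and Adm by -0.94, while Vegfa (0.71) and Bnip3 (1.38) were on the side of higher values. With slide as a random block 9 sterol, 4 matrix and 6 contractile genes were lower, and with normexp background correction 1, none and 1. These lower values also depended on the scaling. Scaled to the array median, 3 sterol genes, no matrix gene and 1 contractile gene were lower with BPA, and of the sterol, matrix and contractile genes named here Hmgcs1 alone passed, by another of its probes. Hp, Adm and Vegfa did not pass under that scaling either, and Cnn1 and Adm did not pass with slide as a random block. Among repair genes Ogg1 rose more with BPA, with a difference of 1.11 ± 0.10. Under median scaling that probe did not pass, but the other Ogg1 probe tested did. No probe of Ogg1 passed with slide as a random block.

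BPA alone, in the second array set with its own scaling, altered 13 of 15621 genes from 4 to 24 hr (0.0832%), all of them lower at 24 hr. With a Benjamini-Hochberg p below 0.05 in place of the Bonferroni limit it altered 911 (5.83%), 259 upward and 650 downward. The sets were extracted separately and no test was made across them. In the second set the SE of the change was 0.23 for Hmox1, 0.21 for Hmgcs1 and 0.35 for Il6. With KBrO3 + BPA the SE was 0.063, 0.055 and 0.055 for the same genes. Not every gene followed this order, since Tnf had an SE of 0.19 with BPA alone and 0.34 with KBrO3 + BPA. A change of the same size passes less readily where its SE is larger. The 13 genes therefore do not show that other genes stayed unchanged. For genes named above, the change with BPA alone was 0.19 for Hmox1, 0.40 for Cdkn1a, -0.34 for Hmgcs1 and 0.25 for Plk1, each under 0.5 in size. It was -2.78 for Cxcl1, -3.14 for Il6, -4.05 for Ccl20 and -4.18 for Egr4, each of them below 0. It was 2.87 for Car6 (adjusted p = 0.00942) and 1.76 for Klf15 (adjusted p = 0.0043), both among the upward ones at the Benjamini-Hochberg limit.

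Of the genes named by rule and not yet described, Agtr2, the angiotensin II type 2 receptor, with its probe at chrX:19921588-19921647, was 1.78, 1.55 and 1.75 on the 4 hr arrays and -4.74, -4.85 and -4.42 on the 24 hr arrays, against 2.83, 2.93 and 2.80 on the untreated arrays. Agtr2 thus fell by 6.36 ± 0.10 (adjusted p = 1.43e-13), with no overlap between the times. It was above background on all 3 arrays at 4 hr and on 2 of 3 at 24 hr, and its difference from the change without BPA was -3.42 ± 0.15. Il18r1, an interleukin-18 receptor subunit, fell by 4.60 ± 0.11 and was above untreated cells at both times. Dio3, which inactivates thyroid hormone, fell by 3.43, and Slco2b1, a transporter, fell at least 3.13-fold. Cyp2d22 was not well above background at 4 hr and rose at least 1.66-fold, and Akr1b10 rose by 1.44 ± 0.035. With slide as a block Cyp2d22 and Slco2b1 no longer passed. The markers of other cell types were low or few, with 1 of 6 epithelial and 2 of 2 adipocyte markers fallen, Krt19 by 1.96 and Fabp4 by 1.47, and no endothelial or leukocyte marker altered. Their part in the results was not tested.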

How the data were processed

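RNA of 24 cultures was labeled with Cy3 and hybridized to Agilent whole mouse genome arrays. The deposited files hold intensity values per spot, which the authors extracted with Agilent Feature Extraction (version 9.5.3.1 for the first set and 12.0.0.7 for the second per the file headers, 12.0 in the submitters' processing notes). The processed signal is background-subtracted and detrended within an array, and lowest values are surrogates, which compresses dim genes.

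Signals were converted to log2 and each array's 75th percentile over non-control spots was subtracted (R 4.3.3, data.table version 1.17.8). Outlier spots were left out and spots of a probe averaged. Of 41174 probes, 32734 were matched to a RefSeq gene of any type, 23075 by accession and 9659 by symbol. The matched genes included 18442 protein-coding genes. Probes well above background on all 3 arrays of either co-exposure group were tested with limma 3.58.1 (lmFit and eBayes) over the 15 arrays of the first set in 5 groups, with 10 residual degrees of freedom and a median residual SD of 0.103. The same fit gave the difference from KBrO3 alone. BPA alone was fitted on the 9 arrays of the second set. All p-values are two-sided, and printed adjusted p-values are Benjamini-Hochberg values. A gene counts as risen or fallen when at least 1 probe passes a Bonferroni p of 0.01 and 1.5-fold. Limits given as at least N-fold set the brighter group's mean against that of the dim group, where each dim array counts with the probe's signal or its lowest above-background signal, whichever is higher. Motifs were searched in the 250 bases before each RefSeq start site. The p-values measure the spread between replicate cultures of a single line, and 3 arrays per group limit the precision.

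Named genes are the 12 largest rises and falls above background on all 6 arrays, the 6 largest limits each way, the 8 largest differences each way, up to 4 altered members per list and direction with defining genes, and genes named in the study, a few of which are not reported here. Members, the 43 lists and this rule were chosen with earlier results of these data known. Alternatives were scaling to the median, quantile normalization, normexp background correction with an offset of 50, the series matrix values, other filters and thresholds, outlier spots kept, fewer arrays, error weights, slide or replicate blocks and leaving out 1 array. The steps were tested on simulated data. Tables and figures were made with Python 3.11.15, pandas 2.3.3, numpy 2.4.6 and matplotlib 3.10.9.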

Additional observations from a re-analysis of the deposited data

Results flagged for a closer look

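The change from 4 to 24 hr differed between cells given KBrO3 with BPA and cells given KBrO3 alone for 865 genes, by the test of the difference itself in the fit over 15 arrays. The values below are that difference on the log2 scale, the change with BPA minus the change without it. At 4 hr the groups with and without BPA were on different slides, so slide and BPA cannot be told apart there.

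Among NRF2 targets it was 1.98 for Hmox1, whose probe was saturated on 1 array at 4 hr with BPA, 2.16 for Gsta4, 1.85 for Gsta1, 1.33 for Ephx1, 1.25 for Gclm, 1.23 for Srxn1, 1.08 for Osgin1, 1.05 for Slc7a11, 0.87 for Taldo1 and 0.84 for Cbr1. Among p53 targets and genes of cell death it was 1.91 for Phlda3, 1.82 for Cdkn1a, 1.74 for Pmaip1, 1.70 for Mdm2, 1.66 for Apaf1, 1.64 for Perp and 1.17 for Bbc3. All of these were higher with BPA. Other genes higher with BPA were Ddit4l (3.03), Tbc1d2 (2.38), Car6 (2.30), Psrc1 (2.19), Gdf15 (2.11), Kcnj4 (2.11), Chchd10 (2.07), Bnip3 (1.38), Ogg1 (1.11) and Vegfa (0.71).

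Single genes of sterol synthesis were lower with BPA, by -1.27 for Sqle, -1.05 for Hmgcs1 and -0.91 for Insig1. Of matrix, contractile and acute phase genes, which passed in 7 of 31, 9 of 25 and 6 of 19 cases and in none, 1 and none under median scaling, the values were -1.66 for Lox, -1.28 for Actc1, -1.22 for Myl9, -1.01 for Cnn1 and -1.44 for Hp. The remaining lower values were -3.42 for Agtr2, -3.05 for Slco4a1, -2.58 for Aspn, -2.502 for Rspo2, -2.44 for Tslp, -2.32 for Bmp2, -2.28 for Ndnf, -2.23 for Dpt, -2.08 for P2rx5 and -0.94 for Adm. Of 72 genes chosen by the naming rule with a difference past the threshold, 46 still passed by the same probe when arrays were scaled to the median and 13 with normexp background correction. Of the genes listed here, Hp, Osgin1, Taldo1, Sqle, Insig1, Lox, Cnn1, Actc1, Myl9, Vegfa and Adm passed by no probe under median scaling, and Car6, Chchd10, Osgin1, Taldo1, Cnn1, Ogg1, Bbc3, Apaf1 and Adm by none with slide as a random block.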

How the results depend on the processing

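The count of 5484 altered genes stayed within 1.5 times under quantile normalization, the deposited series table, other filters, outlier spots kept, a 2-fold limit, slide as a random block (consensus correlation 0.652), error weights and leaving out 1 co-exposure array (4538 to 5601, with 50 to 51.8% of them higher). It was 1786 with normexp background correction, 1544 with only the 6 arrays compared in the fit (34.6% higher), 8934 at a Benjamini-Hochberg p below 0.05 (38.9% higher) and 2930 with slide as a fixed block. Median scaling gave 76.1% higher. The cause of these shifts was not tested, except that the fit of 6 arrays has fewer samples.

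The difference with and without BPA (865 genes) was 478 under median scaling (86.2% higher), 45 with normexp, 530 with only the arrays compared, 4997 at the Benjamini-Hochberg limit (42.4% higher), 490 at 2-fold and 388 with slide as a random block. Without 1 array it ranged from 509 to 1586, with 56.6 to 61.1% higher, and 1586 came without KBrO3 + BPA 24 hr replicate 3, the only array of its slide in the first set. A fixed slide block could not be fitted for this difference. For BPA alone, all settings but the main one were chosen after seeing the data. The 13 genes became 4 without the filter, 2 with only the arrays compared, 911 at the Benjamini-Hochberg limit and 1 to 3 without 1 array.

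Replicate numbers do not pair the arrays, since same-numbered arrays had residual correlations of -0.066, 0.067 and 0.030. With a replicate block the counts were 4555, 458 for the difference and 1 for BPA alone.

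Over the named genes, each by its brightest probe, the change kept its side of the threshold in 4133 cases over 20 settings, lost it in 398, gained it in 2 and turned sign in 6, all in genes that had not passed. These were Bmp4, with 0.45 under median scaling, 0.0014 with slide as a fixed block and -0.050 to 0.035 without 1 array, Cdkn1a with 0.32 and Pmaip1 with 0.35 under median scaling. None of the differences turned sign, 303 were lost and 1492 kept over 25 settings. Dim probes limit the precision, since their signal lies near background.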

Other observations

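Of 22 genes of amino acid transport and synthesis 2 rose and 4 fell, and 20 were above all untreated arrays at 4 hr and 20 at 24 hr. Under median scaling 6 rose and 2 fell, and with slide as a fixed block 1 and 2. Of 19 aminoacyl-tRNA synthetases 4 rose and 5 fell, with 16 above all untreated arrays at 4 hr and 17 at 24 hr, and 5 rose and 1 fell under median scaling, 3 and 2 with the block. Genes of pH regulation, with 3 of 18 risen (1 with the block) and 2 fallen, were below the shares over all genes.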
